A study of Mus musculus with 6 samples.

Results

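The genes described here mark T cells and natural killer (NK) cells, and were measured in eWAT, the white fat pad that lies along the epididymis of male mice. They are 37 chosen genes, and a gene was taken where a row of the array table named that gene alone. Of the 37, 36 had such a row, out of 22180 genes so named in the series, and each had 1 row. Lck was the gene not measured in this way. By role, 12 measured genes are shared by T cells, 13 belong to CD8 and cytotoxic cells, 5 to CD4 and regulatory T cells and 6 to NK cells. The study compared wild-type mice (WT, 3 arrays) with Blnc1 adipose-specific transgenic mice (Tg, 3 arrays). All were male C57BL/6 mice, 8 months old, and both genotypes ate a high-fat diet (D12492) for 21 weeks, so no group on a normal diet was compared. Blnc1 is a long noncoding RNA studied in brown fat. The promoter behind the transgene was not given in the sources used here, and with 0 rows named Blnc1 the genotype labels were not checked against the transgene. The labels call the replicates biological, and each array was taken as 1 mouse.

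T cells recognise antigen through a receptor whose CD3 chains pass the signal inward. CD8 T cells and NK cells kill target cells with perforin and granzymes, while CD4 T cells help other cells or, as FOXP3-positive regulatory cells, restrain them. In obese visceral fat, CD8 and interferon-producing T cells are known to gather and regulatory T cells to become fewer.

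The values are log2 array signals, normalised between arrays by the authors. Array medians lay between 2.64 and 2.75, and pairs of arrays correlated at r = 0.979 to 0.990 across rows. Of 9 measured white adipocyte genes, all were above the median row (2.67), and Adipoq read 9.21 to 9.80 in WT and 9.99 to 10.40 in Tg, so the labelled tissue carried its defining markers. In such bulk RNA, fewer T cells and less RNA per T cell cannot be told apart. Transcripts of the epididymis were unevenly present. Spink8, a protease inhibitor gene of the epididymis, read 6.55 in WT 2 and 8.09 in WT 3, and between 1.16 and 2.53 elsewhere. Gpx5, an epididymal peroxidase gene, read 10.77 in Tg 2, 3.22 in Tg 1 and between 0.95 and 1.20 elsewhere.

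T and NK cell genes read lower in Tg on average, but no gene passed the test, and the arrays of the genotypes overlapped for nearly all of them. The mean difference was below 0 in 33 of 36 genes, where 52.8% of all rows were below 0. The median difference over the 36 was -0.70 on the log2 scale, against -0.01 over all rows. In limma, 0 of 36 genes reached an adjusted p of 0.05 (0% of all 41345 rows), with adjusted p between 0.41 and 0.97. At an unadjusted p under 0.05 there were 2, Ctla4 and Gzmb, both lower in Tg, against 5.88% of rows in that direction, and 0 were higher, against 4.43% (10.3% in either direction). The groups lay apart in 1 gene that was lower (Ctla4, background 9.35%) and 1 that was higher (Il2ra, background 7.36%), where 16.7% of rows were apart in either direction.

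The larger pattern was among the WT mice. Most of these genes were high in WT 2 and WT 3 and low in WT 1. By the mean over the 36 genes, Tg 2 and Tg 3 lay near WT 1, and Tg 1 lay between WT 1 and WT 2. WT 3 was the highest of the 6 arrays for 29 of 36 genes (19.8% of all rows) and WT 2 for 3 of 36 (16.9% of rows). All 3 Tg arrays lay below both WT 2 and WT 3 for 28 of 36 (17.2% of rows). WT 1 lay below both other WT arrays for 34 of 36 (33.7% of rows) and below the mean of the Tg arrays for 30 of 36 (48.4% of rows). The SD was larger in WT than in Tg for 31 of 36 (49.4% of rows), with a median SD of 0.85 in WT and 0.39 in Tg. Over all rows the median SD was 0.16 in each genotype.

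**Figure D1:**
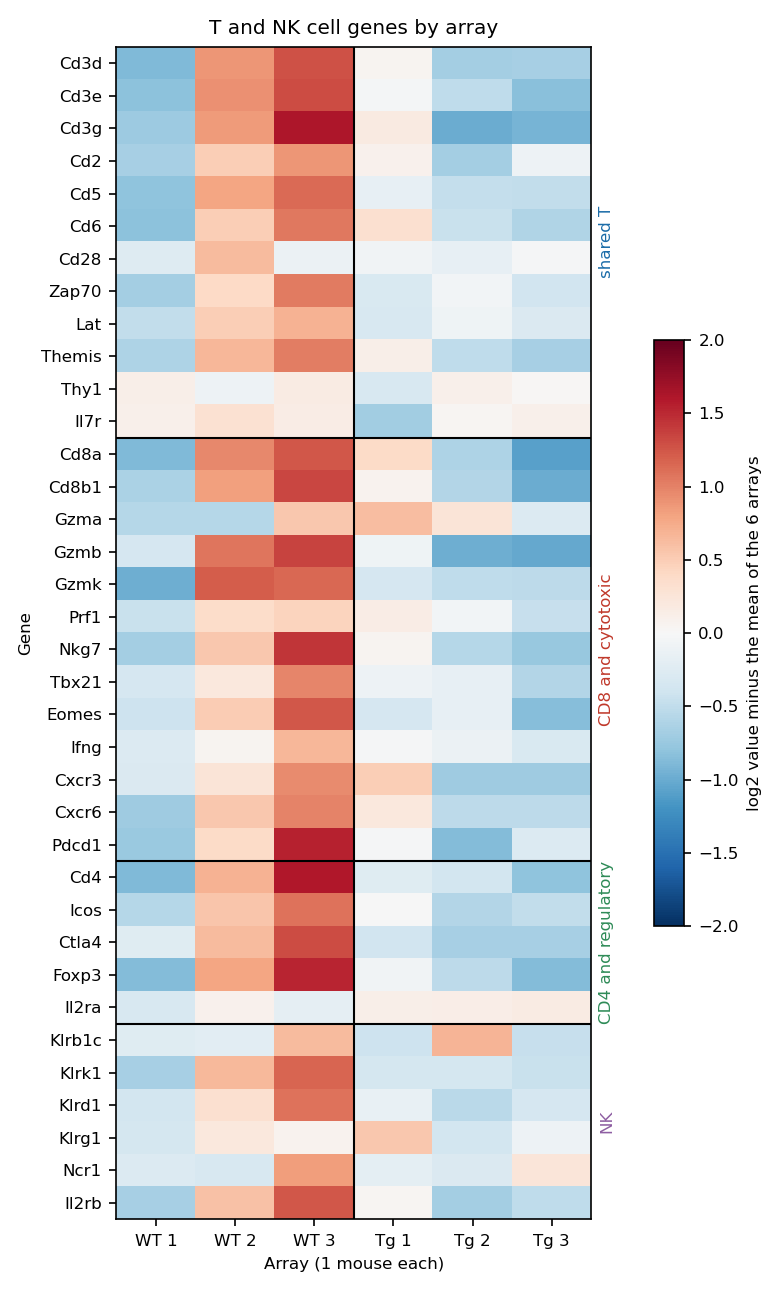
Heat map of the 36 genes (rows, by role group) in the 6 arrays (columns), as the log2 value minus the gene's mean over all arrays. WT 2 and WT 3 are red for most genes, WT 1 is blue, and Cd28, Thy1, Il7r, Gzma, Il2ra, Klrb1c and Ncr1 depart from that pattern.

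Promoter sequence is shown for 5 genes that the results turn on: Cd3e for the shared pattern, Gzmb and Ctla4 for the smallest p, and Il2ra and Gzma for the opposite direction. Each is the 250 bases before the transcription start in RefSeq (GRCm38.p6), 5′ to 3′ on the gene's strand. Capitals mark the letters TGTGGT or their reverse ACCACA, a core of RUNX sites, and GGAAGT or its reverse ACTTCC, a core of ETS sites. Cd3e lies on the minus strand (chr9:45009612-45009861), as do Gzmb (chr14:56262335-56262584) and Gzma (chr13:113100982-113101231). Ctla4 (chr1:60908775-60909024) and Il2ra (chr2:11642542-11642791) lie on the plus strand.
Cd3e: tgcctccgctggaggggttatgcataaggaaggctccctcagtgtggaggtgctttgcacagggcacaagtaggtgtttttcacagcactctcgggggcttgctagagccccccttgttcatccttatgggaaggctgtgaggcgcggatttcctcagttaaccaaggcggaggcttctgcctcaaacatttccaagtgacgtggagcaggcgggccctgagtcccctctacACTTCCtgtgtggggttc
Gzmb: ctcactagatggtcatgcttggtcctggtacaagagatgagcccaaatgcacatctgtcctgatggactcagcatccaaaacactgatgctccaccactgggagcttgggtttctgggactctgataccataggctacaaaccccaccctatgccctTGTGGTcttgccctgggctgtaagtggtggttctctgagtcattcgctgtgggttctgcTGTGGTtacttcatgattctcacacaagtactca
Gzma: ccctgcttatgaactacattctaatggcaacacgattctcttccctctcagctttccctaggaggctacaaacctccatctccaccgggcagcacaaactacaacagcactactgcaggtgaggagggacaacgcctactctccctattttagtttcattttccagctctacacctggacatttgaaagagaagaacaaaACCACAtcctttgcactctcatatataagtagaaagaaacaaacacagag
Ctla4: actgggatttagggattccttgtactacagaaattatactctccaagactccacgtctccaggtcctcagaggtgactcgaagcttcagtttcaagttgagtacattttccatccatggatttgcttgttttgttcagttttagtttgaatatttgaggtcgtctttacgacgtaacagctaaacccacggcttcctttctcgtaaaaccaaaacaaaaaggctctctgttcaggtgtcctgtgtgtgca
Il2ra: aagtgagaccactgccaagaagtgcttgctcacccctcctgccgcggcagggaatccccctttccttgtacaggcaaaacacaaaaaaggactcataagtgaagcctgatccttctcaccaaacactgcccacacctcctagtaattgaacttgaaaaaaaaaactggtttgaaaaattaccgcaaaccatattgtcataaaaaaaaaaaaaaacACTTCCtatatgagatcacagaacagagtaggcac
In these windows Gzmb held the RUNX letters 2 times and Gzma 1 time, Cd3e and Il2ra held the ETS letters 1 time each, and Ctla4 held neither. Promoters were matched for 27 of the 37 genes, Lck included, and not for Cd2, Cd4, Cd6, Cd8b1, Cd28, Icos, Il2rb, Klrd1, Klrg1 and Thy1. The RUNX letters occurred in 11 of the 27 (40.7%) and in 15.9% of all 27025 genes with a promoter. All 3 matched NK genes held them, and 6 of 12 CD8 and cytotoxic, 2 of 9 shared T and 0 of 3 CD4 and regulatory genes. The ETS letters occurred in 12 of 27 (44.4%) against 22.2% of all genes, among them 6 of 9 shared T genes. An E-box, CAGGTG, was in 11 of 27 (40.7%, all genes 19.4%), the T-box letters GGTGTG in 6 (22.2%, all genes 18.3%) and the NFAT letters GGAAAA, which share GGAA with the ETS core, in 5 (18.5%, all genes 22.9%). Both strands were searched, a gene with several starts counted once, and a match is a description of letters, not a bound site.

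Genes shared by T cells were lower in Tg in 12 of 12 cases, with a median difference of -0.49. None passed the test, and no gene had its groups apart. Cd3e, a signalling chain of the T cell receptor complex, read 5.88, 7.62 and 8.02 in WT (mice 1, 2 and 3) and 6.67, 6.20 and 5.87 in Tg. WT 1 was thus level with the lowest Tg array, and WT 2 and WT 3 stood above every Tg array. The difference was -0.93 ± 0.55 (SE, n = 3 per group; limma adjusted p = 0.60). Cd3g, its partner chain, read 5.09, 6.65 and 7.43 in WT and 5.99, 4.81 and 4.88 in Tg, a difference of -1.16 ± 0.62 (adjusted p = 0.57). Themis, needed for T cell selection in the thymus, read 2.44, 3.73 and 4.08 in WT and 3.17, 2.56 and 2.40 in Tg (-0.71 ± 0.44, adjusted p = 0.62). In each of these genes WT 1 lay inside the Tg range.

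The receptor genes Cd3d (-0.85), Cd5 (-0.75), Cd6 (-0.48) and Cd2 (-0.47), and Zap70 (-0.50) and Lat (-0.46), the kinase and adaptor that relay the receptor's signal, had the same order, with WT 3 highest and WT 2 next. Cd28, the costimulatory receptor, differed by -0.17 and was high in WT 2 alone (3.98, against 3.08 to 3.32 in the other arrays). Il7r, the receptor chain for the survival factor IL-7, averaged 10.07 over the arrays, against 6.71 for Cd3e. Which cells gave this signal was not tested. Il7r did not follow the others in array order. It read 10.17, 10.38 and 10.22 in WT and 9.38, 10.10 and 10.18 in Tg, so that Tg 1 alone was low (-0.37 ± 0.22, adjusted p = 0.61). Thy1, a surface protein that fibroblasts and nerve cells carry too, ranged from 5.67 to 6.16 over all arrays and differed by -0.13.

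In the CD8 and cytotoxic group, 12 of 13 genes were lower in Tg, with a median difference of -0.78 and none past the threshold. Cd8a and Cd8b1 encode the chains of the CD8 coreceptor. Cd8a read 3.21, 5.06 and 5.34 in WT and 4.48, 3.49 and 3.003 in Tg (-0.88 ± 0.63, adjusted p = 0.67), and Cd8b1 4.33, 5.78 and 6.30 against 5.03, 4.37 and 3.98 (-1.01 ± 0.53, adjusted p = 0.56). Tg 1 was the highest Tg array in both, and WT 1 lay below it.

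Gzmb, the granzyme that triggers apoptosis in target cells, had the largest difference of the 36. Its values were 2.52, 3.92 and 4.20 in WT and 2.76, 1.87 and 1.83 in Tg, so WT 1 lay below Tg 1 but above Tg 2 and Tg 3. The means were 3.55 ± 0.90 and 2.15 ± 0.53 (SD, n = 3), a difference of -1.39 ± 0.48 (SE), or 2.63-fold, with an adjusted p of 0.43. Eomes and Tbx21, transcription factors of cytotoxic and NK cells, had a similar order. Eomes read 2.28, 3.21 and 3.93 in WT and 2.36, 2.54 and 1.85 in Tg (-0.89 ± 0.42, adjusted p = 0.53), and Tbx21, a dim gene below the median row, 2.09, 2.63 and 3.40 against 2.33, 2.26 and 1.85 (-0.56 ± 0.33, adjusted p = 0.60).

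The other granzymes differed in their order over the arrays. Gzmk differed by -0.91 and was high in WT 2 (4.18) and WT 3 (4.12), with 1.995 in WT 1 and 2.45 to 2.65 in Tg. Gzma, described after its values were seen, was the one cytotoxic gene higher in Tg, at 2.16, 2.16 and 3.26 in WT and 3.35, 2.99 and 2.45 in Tg (0.40 ± 0.36, adjusted p = 0.73). It was low in WT 2, where Gzmb and Gzmk were high. Gzma and Gzmk are direct neighbours on chromosome 13 in the RefSeq gene order. Nkg7, a granule membrane gene, differed by -0.85, and Pdcd1, the inhibitory receptor PD-1, by -0.78. The homing receptors Cxcr3 and Cxcr6 differed by -0.62 and -0.55, the interferon gene Ifng, also dim, by -0.29 and the perforin gene Prf1 by -0.24.

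Of the 5 CD4 and regulatory genes, 4 were lower in Tg, and the median difference was -0.95. Cd4, the coreceptor of helper T cells, which macrophages carry at lower levels in some species, read 4.92, 6.50 and 7.41 in WT and 5.56, 5.43 and 4.998 in Tg (-0.95 ± 0.59, adjusted p = 0.62). Foxp3, the transcription factor that defines regulatory T cells, read 2.82, 4.48 and 5.22 in WT and 3.62, 3.17 and 2.83 in Tg (-0.96 ± 0.59, adjusted p = 0.62). WT 1 was the lowest array for both genes. Icos, a costimulatory receptor, read 3.52, 4.65 and 5.17 against 4.08, 3.50 and 3.59 (-0.72 ± 0.42, adjusted p = 0.59).

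Ctla4 and Il2ra, the remaining regulatory genes, were the ones whose groups lay apart, in opposite directions. Ctla4, an inhibitory receptor, read 1.56, 2.42 and 3.10 in WT and 1.41, 1.13 and 1.13 in Tg. All Tg arrays were below all WT arrays, by a margin of 0.15 from WT 1. Every array but WT 3 lay below the median row (2.67), so most of these values are dim. The difference was -1.14 ± 0.37, with an adjusted p of 0.41, the smallest among the 36. Il2ra, the high-affinity chain of the IL-2 receptor, read 4.62, 5.03 and 4.77 in WT and 5.07, 5.08 and 5.11 in Tg, a difference of 0.28 ± 0.13 (adjusted p = 0.52). The highest WT array was thus 0.04 below the lowest Tg array. Cd28, Ctla4 and Icos lie next to each other on chromosome 1, and their differences ran from -0.17 to -1.14.

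NK genes were lower in Tg in 5 of 6 cases, with a median difference of -0.43 and none past the threshold. That median was -0.11 without WT 3, -0.69 without WT 1 and -0.73 over the 4 NK genes above the median row. Klrd1 (CD94) and Klrk1 (NKG2D), receptors of NK cells and of activated CD8 T cells, and Il2rb, the receptor chain for IL-2 and IL-15, followed the T cell order. Klrd1 read 4.06, 4.76 and 5.52 in WT and 4.29, 3.90 and 4.10 in Tg (-0.69 ± 0.35, adjusted p = 0.55). Klrk1 read 2.99, 4.30 and 4.81 against 3.30, 3.30 and 3.21 (-0.77 ± 0.43, adjusted p = 0.59), and Il2rb 4.61, 5.85 and 6.51 against 5.31, 4.59 and 4.76 (-0.77 ± 0.48, adjusted p = 0.62).

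The other 3 NK genes had different orders. Ncr1 (NKp46) read 4.02, 3.98 and 5.13 in WT and 4.10, 3.998 and 4.54 in Tg, so WT 3 alone stood out and WT 2 was the lowest array (-0.17 ± 0.34, adjusted p = 0.89). Klrb1c (NK1.1) read 1.71, 1.73 and 2.58 in WT and 1.53, 2.63 and 1.48 in Tg (-0.13 ± 0.38, adjusted p = 0.93), with Tg 2 and WT 3 high. Klrg1, a receptor of mature NK and effector T cells, differed by 0.05 ± 0.26. Klrb1c and Klrg1 lay below the median row.

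**Figure D2:**
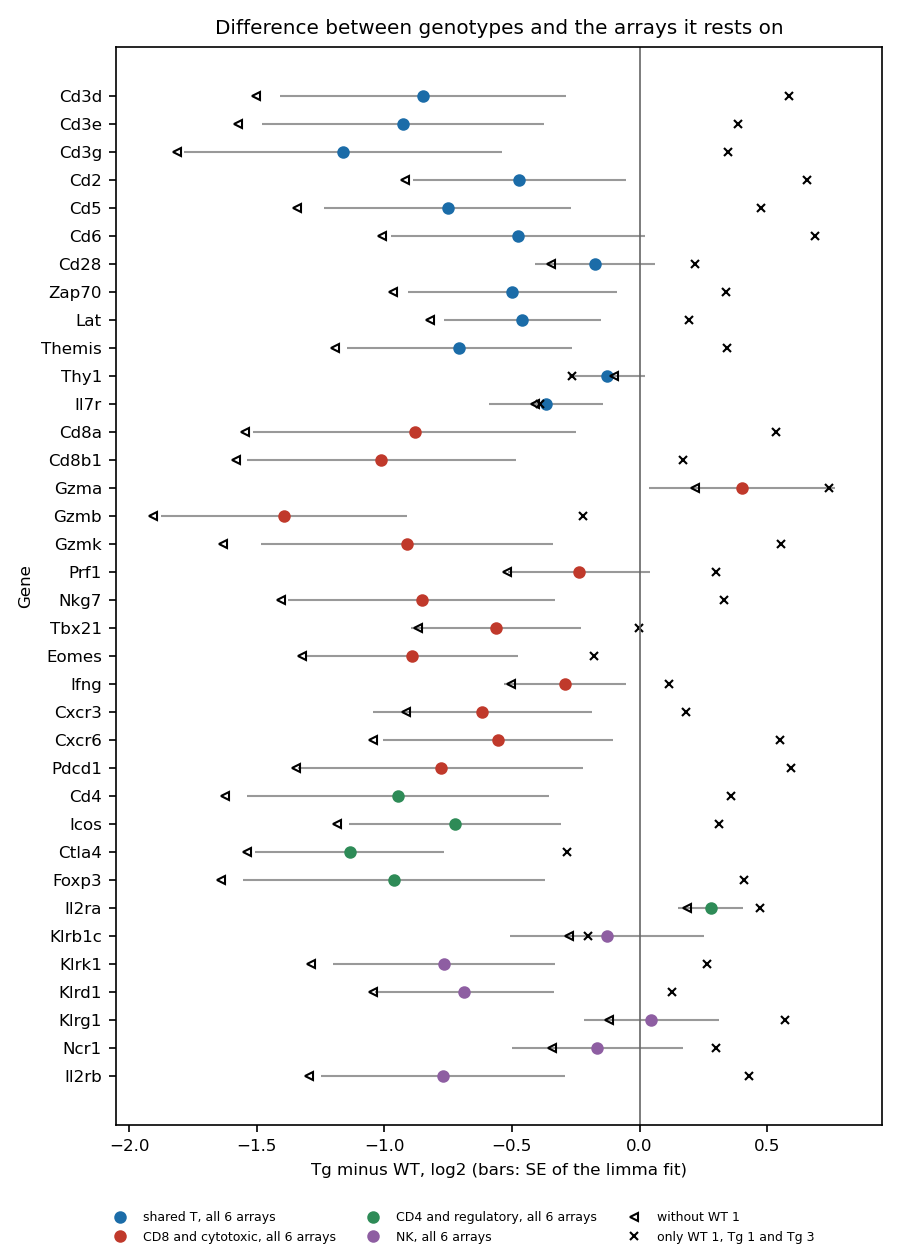
Tg minus WT on the log2 scale for each gene, with the SE of the limma fit over all 6 arrays (coloured points, bars), without WT 1 (triangles) and with WT 1, Tg 1 and Tg 3 only (crosses). Gzmb (-1.39) is lowest and Gzma (0.40) highest, and most crosses lie right of 0 while most triangles lie left of the coloured points.

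Since most genes shared an array order, differences between 2 genes within an array were taken for 11 pairs, chosen after the values were seen. Such a difference shows unequal change between arrays and not the ratio of the transcripts. Foxp3 minus Cd4 was -2.10, -2.02 and -2.19 in WT and -1.93, -2.26 and -2.17 in Tg. It spanned 0.33 over the 6 arrays, while Foxp3 alone spanned 2.40. The genotypes differed by -0.01 in this measure (exact permutation p = 1). Cd8a minus Cd4 spanned 0.99 and differed by 0.07 (exact permutation p = 0.8). Cd8a minus Cd8b1 spanned 0.58 and Cd3e minus Cd3g 0.80.

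Gzmb relative to Cd8a gave the one pair whose groups were apart. Gzmb minus Cd8a was -0.69, -1.14 and -1.14 in WT and -1.72, -1.62 and -1.18 in Tg. The nearest arrays of the groups lay 0.03 apart, and the difference was -0.51. The exact permutation p was 0.1, the smallest that 3 against 3 arrays can give, and 0.73 after Benjamini-Hochberg adjustment over the 11 pairs. No pair could thus reach 0.05, and the pairs were picked from these same values. The permutation p values of the pairs therefore carry no conclusion. Il2ra minus Foxp3 (1.24 higher in Tg) and Gzma minus Cd8a (1.28 higher) overlapped between the groups (exact permutation p = 0.2 for each, 0.73 adjusted). Ncr1 minus Cd3e spanned 2.31 over the arrays and Il7r minus Cd3e 2.11, near the 2.15 of Cd3e itself.

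**Figure D3:**
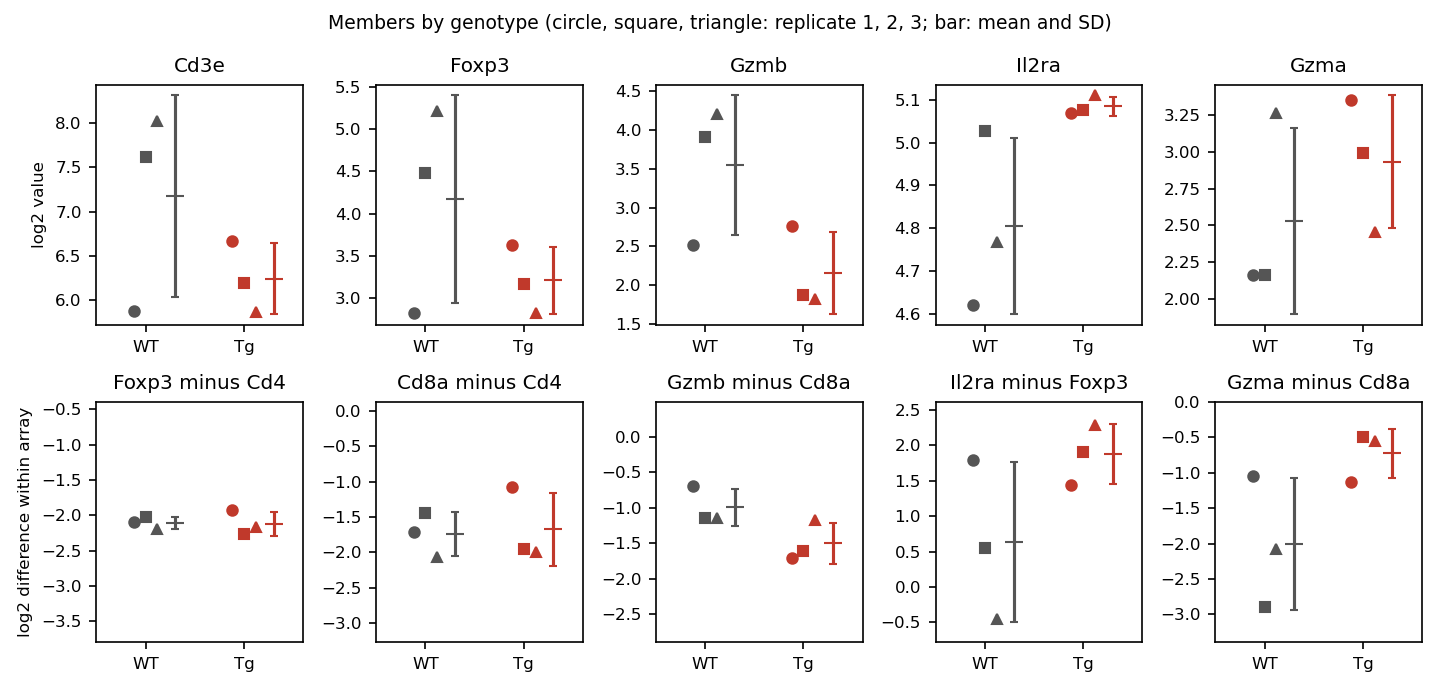
Top row, log2 values of 5 genes by genotype, and bottom row, log2 differences between 2 genes within each array; symbols mark replicates 1 to 3 and bars the mean and SD (n = 3). Upper panels have their own scales and lower panels span the same number of log2 units, and Foxp3 minus Cd4 is the narrowest, at 0.33 over the 6 arrays.

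Other genes of T cell signalling and T cell transcription were also mostly lower in Tg. Of 30 listed, 25 were measured, 21 were lower in Tg, and 0 passed the adjusted threshold, with 3 of 25 at an unadjusted p under 0.05, all lower (5.88% of all rows). Their median difference was -0.39. WT 3 was highest for 20 of the 25 (19.8% of all rows). WT 1 lay below the Tg mean for 14 of the 25, near the share over all rows (48.4%). With only WT 1, Tg 1 and Tg 3 their median was 0.03. Txk, a kinase of the receptor pathway, differed by -0.97 ± 0.24 (adjusted p = 0.35) with groups apart, as was the kinase gene Fyn (-0.29 ± 0.10, adjusted p = 0.42), while Sh2d1a, the adaptor SAP, overlapped (-0.85 ± 0.33, adjusted p = 0.46). Plcg1, a phospholipase that acts below the receptor and in many other cells, was higher in Tg with groups apart (0.25 ± 0.15, adjusted p = 0.60) and lowest in WT 3. The genes with the highest signal in this list, Lcp2 (-0.33) and Malt1 (0.06), are also known from other blood cells. Of 20 further NK receptor genes 14 were measured, 13 lower in Tg and 4 of them with groups apart (9.35% of all rows). WT 3 was highest for 11 of the 14, and all Tg arrays lay below WT 2 and WT 3 for 11 of the 14 (17.2% of rows). Klrb1f, an NK receptor gene, read 4.28, 5.32 and 5.99 in WT and 4.29, 4.66 and 4.15 in Tg, and Klrc1 (NKG2A) 1.63, 2.77 and 3.72 against 2.28, 2.05 and 1.91. Both thus had the order of most T cell genes, unlike Ncr1 and Klrb1c. They were named after their values were seen, and others of the list differed. Klra9 was higher in Tg (0.33), Klrc2 was highest in WT 1 (-0.10), and Klre1 differed by -0.21. The 4 with groups apart were Slamf7 (-0.63 ± 0.19), Fcgr3 (-0.39 ± 0.14), Tyrobp (-0.29 ± 0.11) and Fcer1g (-0.25 ± 0.11), and macrophages are known to carry the last 3. Slamf7 averaged 9.25 over the arrays, against 4.29 for Ncr1 and 1.94 for Klrb1c. Which cells gave the Slamf7 signal was not tested.

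Genes of other cells differed between the same arrays, and their part in the results was not tested. The mean level of a list in each array, relative to its mean over all arrays, was -0.54, 0.48 and 0.96 in the WT mice and -0.03, -0.38 and -0.49 in the Tg mice for the 36 T and NK genes. B cell genes (13 measured, all lower in Tg, 2 with groups apart, against 9.35% of all rows) gave -0.14, 0.39 and 0.49 in WT and 0.34, -0.68 and -0.41 in Tg, so Tg 1 stood with WT 2 and WT 3. The macrophage genes (15 measured, 14 lower, 12 of these with groups apart, against the same 9.35%) gave 0.05, 0.12 and 0.22 in WT and -0.13, -0.14 and -0.12 in Tg. Cd163, a scavenger receptor of macrophages, was the one higher in Tg, with groups apart (0.64 ± 0.14, adjusted p = 0.33). White adipocyte genes ran the other way. All 9 measured were higher in Tg, 7 with groups apart (7.36% of all rows) and 5 at an unadjusted p under 0.05 (4.43%), and WT 3 was the lowest array for all 9. Their array means were -0.03, -0.19 and -0.35 in WT and 0.31, 0.03 and 0.22 in Tg. Lymphoid stroma genes (7 of 10 measured, all lower in Tg, 0 apart) ranged from -0.09 to 0.48 in WT and from -0.51 to 0.20 in Tg. Glycam1, which marks lymph node vessels, stayed between 1.67 and 2.66, below the median row, and Madcam1 between 1.47 and 2.11. The brightest genes of the list, Cxcl13 and Ltb, were above the median row. Cxcl13 read 7.88, 8.43 and 9.46 in WT and 8.75, 6.85 and 8.45 in Tg. Ltb read 4.21, 5.21 and 5.77 in WT and 4.82, 4.05 and 3.56 in Tg (-0.92). The epididymis list (21 measured, 15 of them below the median row by their means) gave -0.89, -0.42 and -0.28 in WT and -0.67, 3.24 and -0.98 in Tg. Of the 21, 18 were higher in Tg, and Tg 2 was the highest array for 15. Spink8 was high in WT 2 and WT 3. Defb42 was high in WT 2 (4.37), WT 3 (5.67) and Tg 2 (5.64), and read 0.93 in WT 1, 1.195 in Tg 1 and 1.16 in Tg 3. Whether epididymis transcripts bear on the T cell values was not tested.

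**Figure D4:**
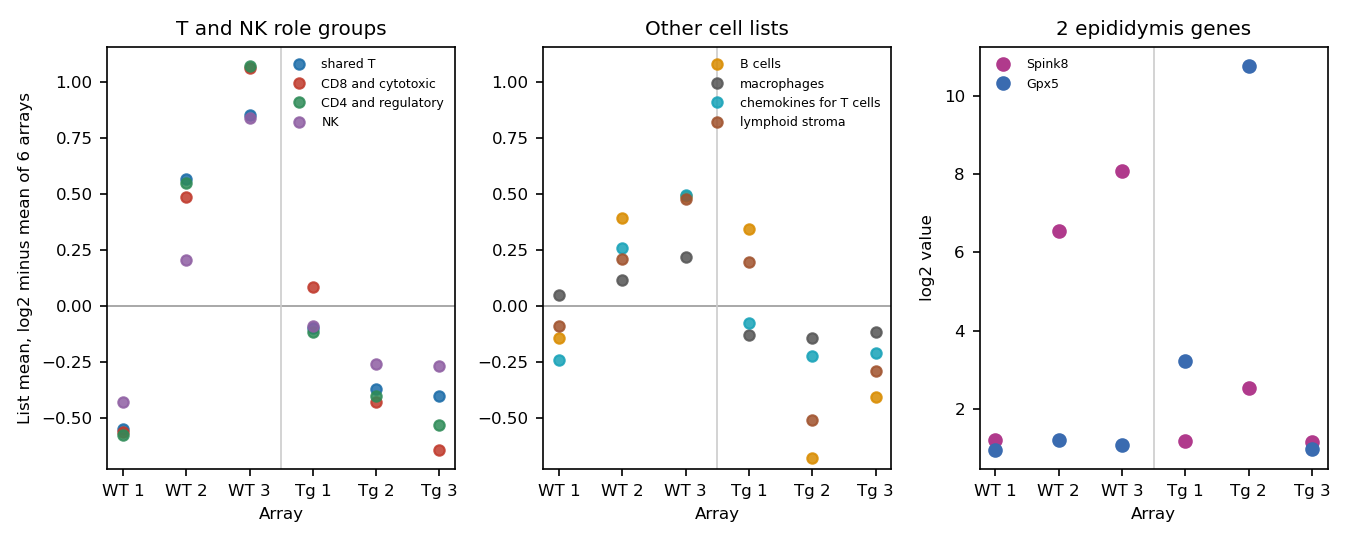
Mean log2 level per array, relative to the mean of the 6 arrays, of the 4 role groups (left) and of 4 lists of other cells (middle), and log2 values of 2 epididymis genes (right). WT 3 is highest in all 4 role groups, at 0.84 to 1.07, and Spink8 is high in WT 2 and WT 3 while Gpx5 is high in Tg 2.

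The size of the difference depended on which mice were in the comparison. Leaving out any 1 array kept the median below 0, with 31 to 34 of 36 genes lower in Tg. Without WT 1 the median difference over the 36 genes was -1.12, 34 were lower in Tg, and 26 had an unadjusted p under 0.05, all lower, against 7.1% of all rows (higher, 0 genes against 5.21%). Still 0 passed, with a smallest adjusted p of 0.15 in limma. The 10 others were Cd28, Thy1, Il7r, Gzma, Ifng, Cxcr3, Il2ra, Klrb1c, Klrg1 and Ncr1. WT 1 lay below both other WT arrays for 34 of the 36 genes. Leaving it out therefore raised the WT mean for those 34 by construction, and the count of 26 is no independent result. Without WT 3 the median was -0.33, without WT 2 -0.58, and without Tg 1, Tg 2 or Tg 3 it was -0.83, -0.60 and -0.55. In these comparisons 0 to 3 genes had an unadjusted p under 0.05. Without WT 2 there was 1, higher in Tg (lower 4.2% of rows, higher 3.31%), and without WT 3 there was 1 in each direction (4.72% and 2.91%). Without Tg 1 there were 3, all lower (5.07% and 3.43%), and without Tg 2 (4.77% and 4.54%) or Tg 3 (5.18% and 3.72%) there were 0. A comparison of WT 1 with Tg 1 and Tg 3 leaves out WT 2 and WT 3, high in Spink8, and Tg 2, highest in Gpx5. Tg 1, which is kept, still read 3.22 in Gpx5, against 0.95 to 1.20 in WT. In this comparison 29 of 36 genes were higher in Tg (49.9% of all rows), with a median of 0.33. Its only WT array is the one that lay below the mean of the Tg arrays for 30 of 36 genes. The opposite direction was therefore largely set by construction and is no independent result. At an unadjusted p under 0.05 there was 1 gene, higher in Tg (background 2.21%), and 0 lower (background 3.23%). That comparison rests on 1 WT mouse, which limma assumes to vary like the Tg mice. Thy1, Il7r, Gzmb, Tbx21, Eomes, Ctla4 and Klrb1c were the 7 genes still lower in it, with differences of -0.22 for Gzmb and -0.28 for Ctla4.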

How the data were processed

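RNA was measured on 6 Affymetrix whole-transcript arrays from biotin-labelled cDNA, per the labels. Each array has 1 deposited log2 value per row. RMA and limma are named per the submitters' processing notes, and their versions and the build are not given in the sources used here. RMA normalises between arrays and compresses low signals, and no detection calls were used, so dim genes are described by level. The number of arrays limits the precision.

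Of 41345 rows, 23521 named 1 gene, 1814 several and 16010 none by the platform annotation. All rows were fitted with limma 3.58.1 in R 4.3.3 (lmFit, eBayes, 2-sided, no covariate, no filter), and Benjamini-Hochberg adjustment ran over all rows (threshold 0.05). A negative difference means lower in Tg. The fit was also run on simulated arrays with independent noise in each row. That simulation does not cover a spread that many genes share, as among the WT mice. Members, lists, promoter motifs and alternatives were chosen with earlier results of these data known, so lists are given as counts and medians without a test. Values in every array were given for Cd3e, Cd4, Cd8a, Foxp3, Ncr1, Klrb1c and Gzmb, for the 4 smallest p in each role group and for genes with groups apart. Context lists name at most the 3 genes with the smallest p and the 2 brightest, and genes outside these rules were named after their values were seen. Alternatives left out each array, added the replicate block, renormalised in 3 ways, filtered dim rows, changed the variance model or array weights and averaged rows of a gene.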

Additional observations from a re-analysis of the deposited data

How the results depend on the processing

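Rows with an adjusted p of 0.05 or below stayed at 0 under all 15 alternatives in limma, over all rows and among the 36 genes, and the smallest adjusted p of all rows as deposited was 0.196 (unadjusted p under 0.05 in 4263 rows). With only WT 1, Tg 1 and Tg 3, 2246 rows had an unadjusted p under 0.05, 1 of the 36 genes did, and 7 of 36 were lower. The median differences there were 0.33 over the 36 genes, 0.34 for shared T, 0.30 for CD8 and cytotoxic, 0.36 for CD4 and regulatory and 0.28 for NK genes. Single genes that turned to higher in that comparison were Cd3d 0.59, Cd3e 0.38, Cd3g 0.35, Cd2 0.66, Cd5 0.47, Cd6 0.69, Cd28 0.22, Zap70 0.34, Lat 0.20, Themis 0.34, Cd8a 0.53, Cd8b1 0.17, Gzmk 0.55, Prf1 0.30, Nkg7 0.33, Ifng 0.12, Cxcr3 0.18, Cxcr6 0.55, Pdcd1 0.59, Cd4 0.36, Icos 0.31, Foxp3 0.41, Klrk1 0.26, Klrd1 0.13, Ncr1 0.30 and Il2rb 0.43. This comparison has 1 WT array by construction, the WT array that was low for most of these genes.

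Leaving out 1 array at a time, the count of genes with an unadjusted p under 0.05 ran from 0 (without Tg 2 or Tg 3) to 26 (without WT 1), and the median difference over the 36 genes stayed below 0. Small differences turned sign in 5 genes, whose values ran from -0.35 to 0.10 in Cd28, -0.21 to 0.0026 in Thy1, -0.50 to 0.16 in Klrb1c, -0.21 to 0.24 in Klrg1 and -0.36 to 0.21 in Ncr1. With array weights Klrg1 was -0.0093. A limma fit with the replicate block left 1 gene at an unadjusted p under 0.05, and so did keeping only rows above the median row, which keeps 30 of the 36 genes. Deviations of same-numbered arrays correlated at -0.04, 0.01 and -0.04 over rows. The labels do not say whether equal numbers mean a shared litter or batch, and these correlations cannot settle it. Median centring, quantile and cyclic loess normalisation changed no gene's direction. The variance model leaves the differences as they are, and each of the 36 genes has 1 row. Neither that model nor averaging rows could therefore change a direction.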

Other observations

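Among genes of cytokines and chemokines that act on T cells, 17 were measured, 14 were lower in Tg and 0 passed in limma (4 of 17 at an unadjusted p under 0.05, all lower, against 5.88% of all rows). The chemokine genes Ccl3 (-0.69 ± 0.14 SE, n = 3 per group) and Ccl4 (-0.67 ± 0.17) and the alarmin gene Il33 (-0.46 ± 0.11) had their groups apart, with WT 1 above every Tg array in each (adjusted p = 0.33, 0.35 and 0.34 in limma). Cxcl16, the ligand of CXCR6, was also apart (8.32, 8.66 and 8.74 in WT, 8.15, 8.20 and 8.14 in Tg). The interleukin gene Il12a, dim in all arrays, was higher in Tg with groups apart (0.25 ± 0.12, limma adjusted p = 0.54). Cxcl9, a ligand of CXCR3, was instead spread among the WT mice like the T cell genes, at 8.53, 9.62 and 10.88 in WT and 9.06, 9.04 and 8.78 in Tg.

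Of the genes of lymphocyte homing and memory, 14 were measured, 11 were lower in Tg, 3 of them with groups apart (background 9.35%). Cd44, the hyaluronan receptor of memory T cells and of macrophages, read 7.95, 8.04 and 8.02 in WT and 6.95, 7.49 and 7.39 in Tg (-0.72 ± 0.16, limma adjusted p = 0.33). The WT mice thus differed by 0.09 in Cd44 while they differed by 2.14 in Cd3e. The integrin gene Itgb7 differed by -0.50 ± 0.18 and Itga1, an integrin of tissue-resident T cells and of vessels, by 0.38 ± 0.16 (adjusted p = 0.44 and 0.49).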
